A study of Mus musculus with 12 samples.

Results

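Iron handling genes are the transporters, reductases, storage proteins and heme enzymes that bring iron into a cell, hold it there and let it out again. The set examined here has 9 genes, matched by symbol in the deposited normalized tables. They are Tfrc, Slc11a1, Slc11a2 and Cybrd1 for uptake, Fth1 and Ftl1 for storage, Slc40a1 and Heph for export, and Hmox1 for the breakdown of heme. All 9 were found in both the colon table (32689 genes) and the blood table (25514 genes), out of 53801 genes in the count tables, and every library of each tissue was used.

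Total RNA was sequenced from colon and whole blood of the same 6 mice, giving 12 libraries, in a study that looked for a transcriptional signature shared by inflamed colon and blood. The mice were C57BL/6 males of 8 weeks, 3 labelled UC (mouse numbers 1, 2 and 4) and 3 labelled control (7, 8 and 9). UC, for ulcerative colitis, stands here for acute chemical colitis: the UC group had 1.5% dextran sulfate sodium (DSS), a sugar polymer that injures the colonic epithelium, in its drinking water for 7 days, the control group had plain water, and all mice were killed on day 8. The 6 mice were taken from 10 on a disease activity score, so they are not a random draw, and colon RNA was depleted of ribosomal RNA while blood RNA was depleted of ribosomal and globin RNA. Tissue and kit therefore cannot be told apart.

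The colon libraries held 69181049 to 103662306 counts and the blood libraries 80867247 to 142536804. The markers of the tissues followed the tissue labels used here: the summed normalized counts of 6 red cell genes were 3934280 to 7784600 in blood libraries and 518 to 4029 in colon libraries, and those of 5 epithelial genes were 505903 to 777275 in colon libraries and 72.7 to 184 in blood libraries. The markers of inflammation did not follow the disease labels. The summed normalized counts of 9 neutrophil genes in the blood were 453566, 51898 and 47232 in mice 1, 2 and 4, labelled UC, and 152584, 39225 and 352312 in mice 7, 8 and 9, labelled control. In both tissues they were highest in mouse 1, labelled UC, or in mouse 9, labelled control, and low in mouse 2, labelled UC. The groups are for this reason always named by their label, UC or control, and every library's value comes before a comparison.

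Iron enters most cells bound to transferrin through the transferrin receptor, encoded by Tfrc, and enters the gut epithelium after Cybrd1 (duodenal cytochrome b) has reduced it and Slc11a2 (the divalent metal transporter DMT1) has carried it across the membrane. Macrophages take iron out of old red cells by means of heme oxygenase 1, encoded by Hmox1, keep it in ferritin, a shell of Fth1 heavy and Ftl1 light chains, and pass it on through ferroportin, encoded by Slc40a1, helped by ferroxidases, among them hephaestin of the gut epithelium, encoded by Heph. Slc11a1 (NRAMP1) is a metal transporter of the phagosome membrane of macrophages and neutrophils, and C57BL/6 mice carry a natural loss-of-function allele of it, so its transcript says nothing of a working protein in this strain. Much of this control acts after transcription, through iron regulatory proteins that bind a hairpin in the messenger RNA, the iron-responsive element (IRE). Bound IREs in a 5′ UTR block translation and those in the 3′ UTR of Tfrc protect the transcript, so the level of a ferritin or ferroportin transcript is not the level of its protein.

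To show which of the 9 transcripts carry the hairpin, the annotated transcripts were searched, on their own strand, for a C, 5 bases, the loop CAGTGN and 5 bases that all pair with the first 5, allowing G with U. There were 7 such elements in 4 of the 9 genes. They are printed 5′ to 3′ as DNA with 6 flanking bases on each side, and the loop is in capitals.
Fth1, 5′ UTR, chr19:9982732-9982760, plus strand: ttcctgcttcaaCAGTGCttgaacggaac
Ftl1, 5′ UTR, chr7:45459779-45459807, minus strand: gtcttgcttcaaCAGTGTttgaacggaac
Slc40a1, 5′ UTR, chr1:45925465-45925493, minus strand: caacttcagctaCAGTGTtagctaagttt
Tfrc, 3′ UTR, chr16:32631219-32631247, plus strand: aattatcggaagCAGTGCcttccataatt
Tfrc, 3′ UTR, chr16:32631598-32631626, plus strand: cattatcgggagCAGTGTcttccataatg
Tfrc, 3′ UTR, chr16:32631663-32631691, plus strand: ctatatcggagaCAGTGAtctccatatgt
Tfrc, 3′ UTR, chr16:32631710-32631738, plus strand: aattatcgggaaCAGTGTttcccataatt
Coordinates are those of GRCm38, and the sequences are from GENCODE. Among all protein-coding genes, 31 of 20916 with an annotated 5′ UTR (0.148%) and 129 of 21707 with a 3′ UTR (0.594%) held at least 1 match. The storage and export genes with a match had it in the 5′ UTR, and the receptor had 4 matches in the 3′ UTR. The search asks for this loop and full pairing, so elements that depart from them are not counted, in the receptor or elsewhere. In Slc11a1, Slc11a2, Cybrd1, Heph and Hmox1 the search found no match, which says only that these letters are not in these transcripts.

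In the colon, ferritin was by far the most abundant of the set. Per kilobase of annotated exon, the mean over the 6 colon libraries was 16172 ± 3408 normalized counts for Ftl1 and 15416 ± 5983 for Fth1 (SD, n = 6), and either gene led in 3 of the 6 libraries. Heph (2811 ± 517), Slc40a1 (2577 ± 1364) and Tfrc (2489 ± 1473) followed (SD, n = 6), and neighbours among these 3 kept their order in only 3 of the 6 libraries, so their order is not larger than the spread. Slc11a2 (744 ± 484) and Hmox1 (442 ± 322) came next, again with the order held in 3 of 6 libraries, then Slc11a1 (105 ± 86.4) and Cybrd1 (25.9 ± 16.3), whose order held in 5 of 6 (SD, n = 6). The steps from Fth1 to Heph, from Tfrc to Slc11a2 and from Hmox1 to Slc11a1 held in 6 of 6 libraries.

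In the blood, Ftl1 stood alone, with 177176 ± 58418 normalized counts per kilobase, 12.6 times the mean of Fth1 at 14065 ± 3868 (SD, n = 6). Tfrc followed with 3743 ± 930, then Slc11a1 with 444 ± 331 and Slc40a1 with 349 ± 207, whose order held in 4 of 6 libraries (SD, n = 6). Hmox1 had 169 ± 102 and Slc11a2 117 ± 8.39, with the order held in 3 of 6 libraries (SD, n = 6). Cybrd1 (2.55 ± 1.56) and Heph (0.298 ± 0.258) were close to the limit of detection, with raw counts of at most 24 for Cybrd1 and 6 for Heph in any blood library.

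**Figure D1:**
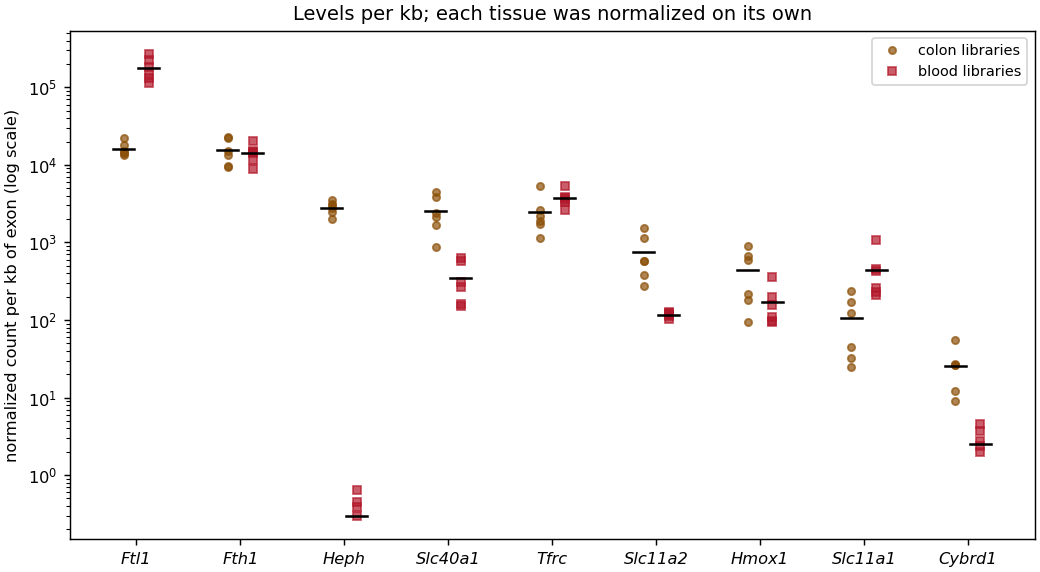
Normalized counts per kilobase of annotated exon (log scale) for the 9 genes, ordered by their colon mean; circles are colon libraries, squares are blood libraries, black bars are means over 6 libraries, and libraries at 0 are not drawn. Ftl1 and Fth1 are level in the colon and 12.6 times apart in the blood, and Heph is near 0 in the blood; the tissues were normalized separately, so heights are to be compared within a tissue.

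The make-up of the ferritin transcripts thus differed within each library. The ratio of Ftl1 to Fth1 in normalized counts was 0.313 to 0.569 across the colon libraries and 3.80 to 7.27 across the blood libraries, and the ranges did not overlap. This ratio does not depend on the scaling between tissues. Several features of the annotation touch Ftl1. 9 genes, most of them processed pseudogenes, match at least 300 bases of the Ftl1 transcript at 90% identity or more, among them Ftl1-ps1 (99.6% over 910 bases) with 1326 to 3154 counts in the colon and 14478 to 24321 in the blood. Together they held 11.2 to 13.0% of the summed colon counts and 9.17 to 13.5% of the blood counts, and how the counting shared the reads among them cannot be told from the tables.

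A further gene, Gm22133, annotated as a miRNA gene of 109 bases (chr7:45458089-45458197), lies inside an exon of Ftl1 on the same strand. Its counts in the blood were 71361, 2 and 24944 in mice 1, 2 and 4 and 40782, 39759 and 2 in mice 7, 8 and 9, while it had at most 2 counts in any colon library. It held 20.1% of the sum of both genes in mouse 1 and 17.0% in mouse 7, and close to none in mice 2 and 9. Reads of a nested gene and its host cannot be told apart here, so blood results for Ftl1 are also given with these counts added. With Gm22133 added, the ratio of Ftl1 to Fth1 in the blood was 3.89 to 7.27.

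Between tissues, Ftl1 and Slc11a1 were higher in the blood and Heph in the colon, while the result for Tfrc depended on the scaling. On a common scale, in CPM (counts scaled by library size) with TMM factors over 12 libraries, Ftl1 had 97.1 to 166 in colon libraries and 2851 to 6293 in blood libraries. Its log2 fold change, colon over blood, was -5.13 ± 0.28 (SE, edgeR quasi-likelihood test, adjusted p = 8.39e-08), and -5.30 with the counts of Gm22133 added. Fth1 had 176 to 441 CPM in the colon and 554 to 1291 in the blood (log2FC -1.58 ± 0.30, adjusted p = 0.00068, but 0.55 with library size only). For both chains each of the 6 blood libraries lay above each of the 6 colon libraries on this TMM scale. For Fth1 this separation depends on that scale, since its direction turned with library size only.

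Tfrc, the receptor that red cell precursors use to supply hemoglobin synthesis, had 40.3 to 182 CPM in the colon and 299 to 589 in the blood, with no overlap (log2FC -2.30 ± 0.34, adjusted p = 0.000116). Slc11a1 had 0.494 to 4.89 CPM in the colon and 14.1 to 73.6 in the blood, again without overlap (log2FC -3.90 ± 0.65, adjusted p = 0.000259). On this TMM scale both were higher in the blood in 6 of 6 mice. With library size only, the edgeR log2FC of Tfrc was -0.15 (adjusted p = 0.715) and that of Slc11a1 -1.75 (adjusted p = 0.0141). The separation of the tissues for Tfrc thus depends on the scaling.

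Heph was the clearest colon gene of the set. Its raw counts summed to 130921 over the colon libraries and to 14 over the blood libraries, and the colon libraries ran from 84.0 to 149 CPM against 0 to 0.0901 in the blood. Per total count, without TMM factors, the colon level was 12966 times that of the blood, with an exact 95% interval of 7727 to 23716. That interval covers counting error only, not the choice of scale. With TMM the mean CPM were 120 in the colon and 0.0413 in the blood, a clearly smaller ratio that lies below the interval. The fitted log2FC of 11.93 (adjusted p = 1.50e-08) depends on the prior count of the fit and is no measure of size. Slc40a1, the exporter that Heph assists, had 44.5 to 219 CPM in the colon and 24.0 to 103 in the blood, and the ranges overlapped. Its log2FC of 1.15 ± 0.47 passed the threshold narrowly (adjusted p = 0.0474) and was higher in the colon in 4 of 6 mice. A replicate block on the mouse gave an adjusted p of 0.109 (log2FC 1.14), and the call was lost without mouse 2, 4, 7 or 8 (adjusted p 0.0532 to 0.194).

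The remaining 3 genes were not called. Slc11a2 had 9.90 to 52.8 CPM in the colon and 11.8 to 14.8 in the blood, and its log2FC of 0.95 ± 0.37 passed the adjusted p (0.0395) but not the fold limit of 1. Cybrd1 had 0.265 to 1.63 CPM in the colon and 0 to 0.425 in the blood (log2FC 1.67 ± 0.71, adjusted p = 0.0558). Hmox1 had 0.907 to 8.71 CPM in the colon and 2.97 to 11.6 in the blood, with a log2FC of -0.40 and a 95% interval from -1.57 to 0.76 (adjusted p = 0.51, and a log2FC of 1.72 with library size only).

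In all, 2 of the 9 genes were called higher in the colon and 4 higher in the blood. Over all 23258 genes tested, 37.7% were called higher in the colon and 20.8% higher in the blood. The scale between the tissues was not fixed by the data: the median log2FC of all genes was 0.46 with TMM and 2.57 with library size only. A single RNA, the 7SL gene Rn7s1, held 19.5 to 34.8% of the counts of each blood library. With library size only, 5 of the 9 genes were called higher in the colon and 2 (Ftl1 and Slc11a1) higher in the blood, against 76.9% and 7.55% of all genes. Fth1 and Hmox1 then changed direction (log2FC 0.55 and 1.72), and Tfrc was no longer called (log2FC -0.15, adjusted p = 0.715). Values relative to the median of all genes were close under both scalings by construction, since a change of scale shifts all genes nearly alike. Ftl1 was -5.59 with TMM and -5.56 with library size only, Slc11a1 -4.36 and -4.31, and Tfrc -2.76 and -2.72. Fth1 was -2.04 and -2.01, and Slc40a1 0.69 and 0.63. Such values give the place of a gene among all genes and do not settle which scale holds.

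**Figure D2:**
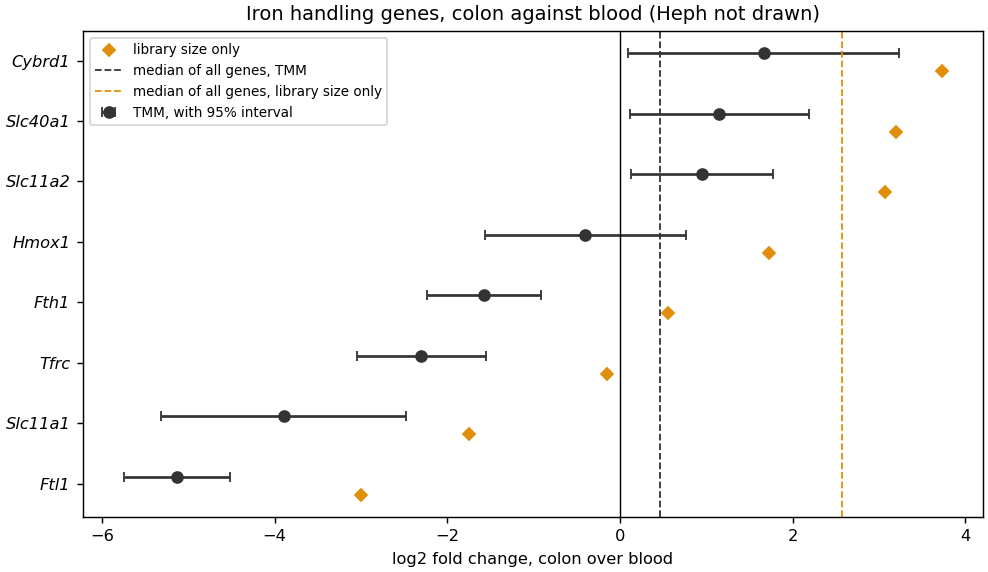
Log2 fold change, colon over blood, for 8 of the 9 genes; black points are the TMM fit over 12 libraries with 95% intervals, orange diamonds are the fit with library size only, and dashed lines mark the median of all genes under each. Ftl1, Slc11a1, Tfrc and Fth1 lie left of the median line of their own scaling under both, while Fth1 and Hmox1 cross 0 when the scaling changes. The place of a gene beside that line hardly changes by construction, since the line moves with all genes. Heph, with 14 counts in all blood libraries, is not drawn.

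The comparison of libraries labelled UC and control, within each tissue, asks whether the disease group shifts these transcripts. In the colon none of the 9 genes was called, with log2FC, UC over control, from -1.21 to 0.47 and an adjusted p of 1.00 for each (edgeR). Of all 22238 genes tested, 1 was called (0.00450%), and 313 had an unadjusted p under 0.05, none of them among the 9. DESeq2 called 6 genes of the table and limma-voom 0, again none of the 9. The labelled groups overlapped for all 9 genes in the colon, where 5.66% of genes did not overlap.

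**Figure D3:**
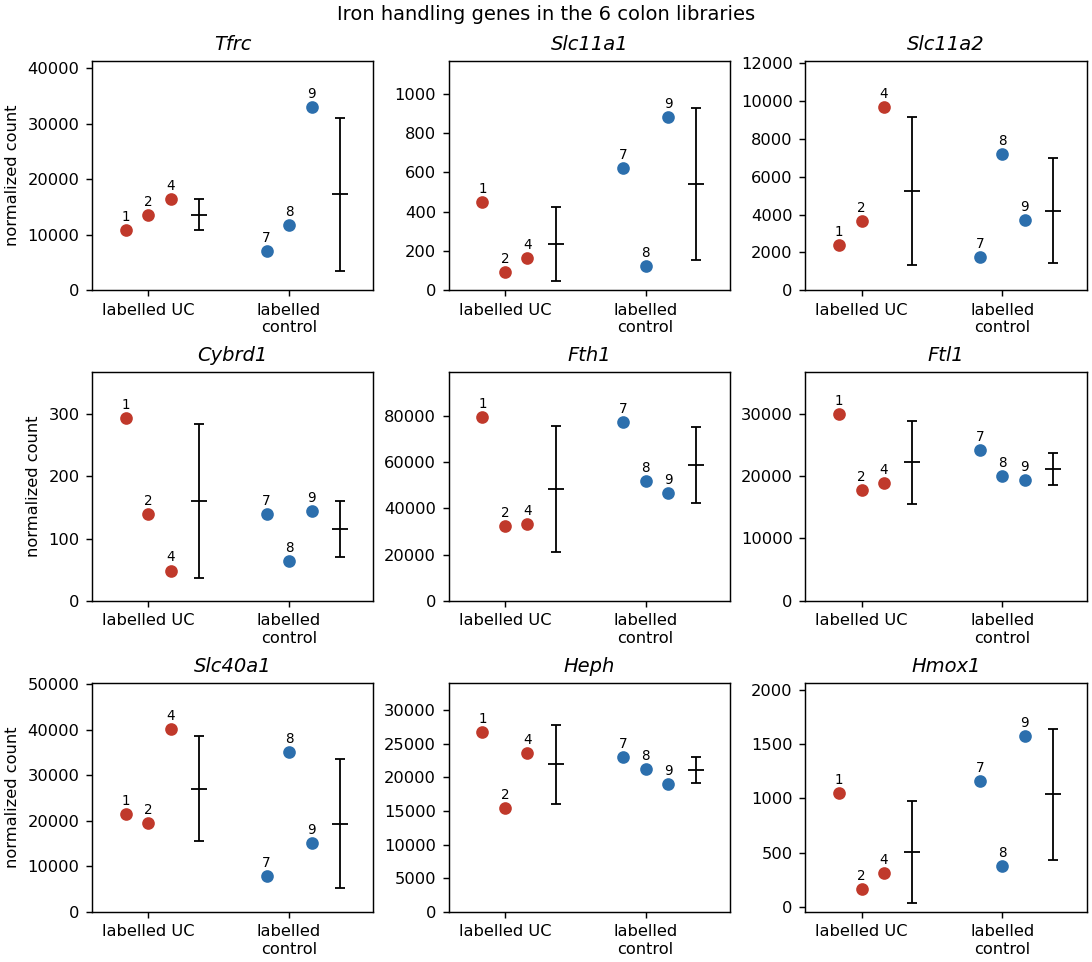
Normalized counts of the 9 genes in the 6 colon libraries, one panel a gene; red points are libraries labelled UC, blue points those labelled control, numbers are mouse numbers, and black marks are group means with SD (n = 3). Every panel shows overlapping groups, and Slc11a1 and Hmox1 are high in mouse 1 (UC label) and in mice 7 and 9 (control label).

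Slc11a1 had 450, 90.6 and 165 normalized counts in the colon libraries labelled UC (mice 1, 2 and 4) and 623, 121 and 882 in those labelled control (mice 7, 8 and 9). Mice 1, 7 and 9 were thus high, at 450 or more against at most 165 in the others, and 1 of them carries the UC label. The labelled means were 235 ± 190 and 542 ± 387 (SD, n = 3 each), with a log2FC of -1.21 and a 95% interval from -3.23 to 0.81. Hmox1 behaved alike, with 1046, 166 and 318 in mice 1, 2 and 4 and 1161, 382 and 1571 in mice 7, 8 and 9. Its log2FC was -1.03, with an interval from -2.91 to 0.84. Without mouse 1 the values of these 2 genes were -2.09 and -2.11, at an adjusted p of 0.971. Slc11a1 is also one of the genes the study itself singled out on these samples, so its choice is not independent of them. The study reports it as upregulated in UC in colon and blood of mice and humans and, by its account, checked in further cohorts. The labelled colon value here has the opposite sign and was not called.

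The monocyte and macrophage markers moved with this pair. Summed over the 10 genes of that list, all found in the table, the colon libraries had 47062, 20634 and 26644 normalized counts in mice 1, 2 and 4 and 61754, 18690 and 73093 in mice 7, 8 and 9. The neutrophil list, with all 9 genes found, had 33952, 7446 and 16499 and then 26129, 17736 and 65279. In mice 2, 4 and 8 nearly all of that sum was Ly6g, with 7350, 16355 and 17455. Ly6g spread 3.47 times from lowest to highest library, while S100a8 of the same list spread 599 times, so the sum understates the spread of other genes. Mice 1, 7 and 9 were the highest 3 on both lists, as they were for Slc11a1 and Hmox1. In bulk tissue, more cells of a type and more RNA per cell cannot be told apart, and the part of these cells in the result was not tested. The 2 protein-coding genes most like Slc11a1 over the 6 colon libraries, by the root mean square (RMS) difference of centred log2 CPM among 13631 genes, were Lilra6 (0.13) and Aoah (0.14). Those most like Hmox1 were Cd300a (0.14) and Gm21188 (0.15).

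Tfrc in the colon followed another order. It had 10805, 13437 and 16443 normalized counts in mice 1, 2 and 4 and 7075, 11697 and 32897 in mice 7, 8 and 9, so mouse 9 stood far above the other libraries. The labelled difference was -0.35 on the log2 scale, with an interval from -1.65 to 0.96. The proliferation list (6 of 6 genes found) summed to 19430, 32953 and 30877 in mice 1, 2 and 4 and to 19691, 30311 and 73439 in mice 7, 8 and 9, with mouse 9 highest and mice 1 and 7 lowest, as for Tfrc. The most similar genes were Smc2, which encodes a condensin subunit (RMS difference 0.15), and Cdk1, the mitotic kinase, itself on the proliferation list (0.16). The part of dividing cells in the Tfrc level was not tested.

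**Figure D4:**
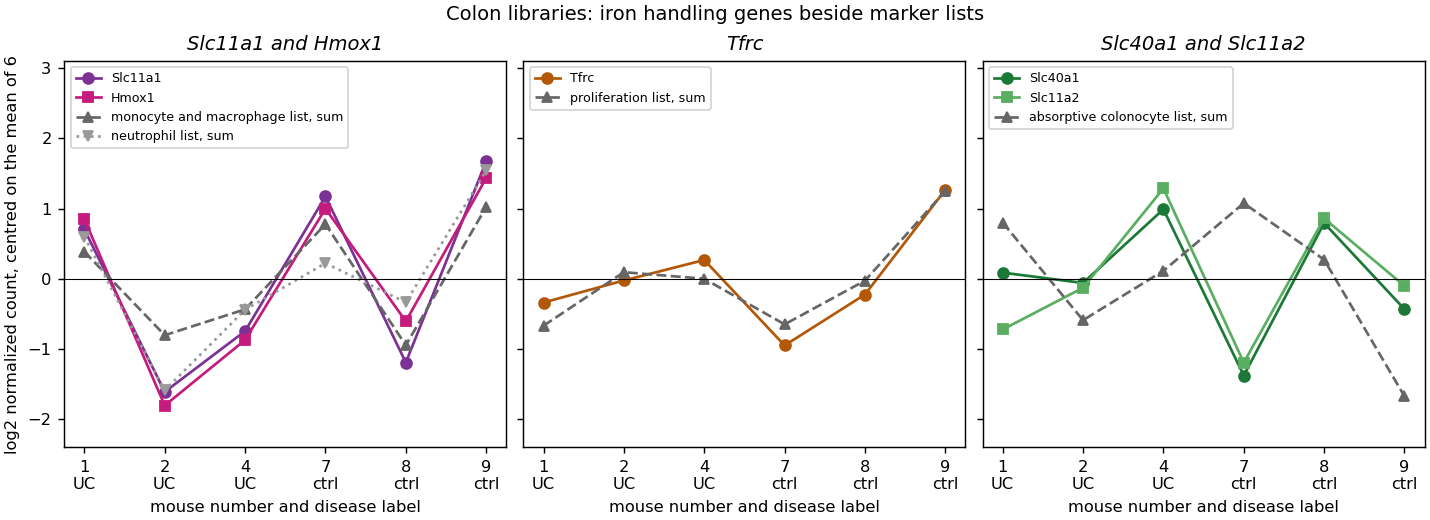
Log2 normalized counts in the 6 colon libraries, each series centred on its own mean, for 5 of the genes and for summed marker lists; the horizontal axis gives mouse number and disease label. Slc11a1 and Hmox1 run with the monocyte, macrophage and neutrophil sums (highest in mice 1, 7 and 9), Tfrc with the proliferation sum (highest in mouse 9), and Slc40a1 and Slc11a2 with each other but not with the absorptive colonocyte sum.

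Slc11a2 in the colon had 2407, 3632 and 9687 normalized counts in mice 1, 2 and 4. In mice 7, 8 and 9 it had 1736, 7200 and 3698. The span of 5.58 times over these libraries cut across the labels. Which cells of the bulk tissue hold Slc11a2 or Slc40a1 was not tested. The exporter Slc40a1 had 21537, 19439 and 40237 in mice 1, 2 and 4 and 7795, 35129 and 15008 in mice 7, 8 and 9. Mice 4 and 8, one of each label, were the highest for both genes, and mouse 7 the lowest for both. Log2FC was 0.30 for Slc11a2 (interval -1.32 to 1.91) and 0.47 for Slc40a1 (interval -0.92 to 1.85). The genes most like Slc11a2 were Plin2 and Abtb2 (both 0.22), and those most like Slc40a1 were Cyp2d11 and Cyp2d10 (both 0.15).

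The summed absorptive colonocyte list (6 of 6 genes found) did not share that order, with 958393, 365463 and 595163 in mice 1, 2 and 4 and 1159670, 664255 and 172447 in mice 7, 8 and 9. The 6 genes of the list did not run together. Slc26a3, the chloride exchanger of the surface epithelium, had 25107, 72441 and 132812 in mice 1, 2 and 4 and 35702, 128020 and 27095 in mice 7, 8 and 9, and Aqp8, a water channel, 3265, 25439 and 51237 and then 13309, 45832 and 4809. For these 2 genes, and for Car4 (36927, 42502 and 86056 and then 24686, 79828 and 37313), mice 4 and 8 were again the highest. The other 3 were highest in mice 1 and 7. They were Car1, a carbonic anhydrase, with 580934, 149804 and 234522 in mice 1, 2 and 4 and 740809, 308201 and 60215 in mice 7, 8 and 9, the keratin Krt20 with 58168, 21145 and 33245 and then 101608, 45693 and 34600, and Cyp2c55 with 253992, 54132 and 57291 and then 243560, 56681 and 8415.

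Heph, the ferroxidase of the epithelium, was with Ftl1 the steadiest of the set in the colon. It had 26816, 15401 and 23650 in mice 1, 2 and 4 and 23024, 21253 and 19062 in mice 7, 8 and 9. Its coefficient of variation was 18.4%, against 21.1% for Ftl1, while highest over lowest was 1.74 for Heph and 1.68 for Ftl1. The log2FC of Heph, 0.04, had an interval from -0.54 to 0.62. Cybrd1, the reductase, was low and variable, with 294, 139 and 48.7 and then 139, 64.3 and 144 normalized counts. The interval of its log2FC (0.46) ran from -1.17 to 2.10. Its nearest genes were Lrfn3 (0.21) and Fam20a (0.26).

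The ferritin chains differed less between colon libraries than the transporters did. Fth1 had 79533, 32308 and 33152 normalized counts in mice 1, 2 and 4 and 77261, 51836 and 46771 in mice 7, 8 and 9. Ftl1 had 29866, 17812 and 18879 in mice 1, 2 and 4 and 24145, 19997 and 19323 in mice 7, 8 and 9. The order of the 6 libraries was the same for both chains, with mice 1 and 7 on top and mice 4 and 2 at the bottom. Log2FC was -0.30 for Fth1 (interval -1.30 to 0.71) and 0.05 for Ftl1 (interval -0.54 to 0.65).

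In the blood, 8 of the 9 genes could be tested, since Heph was under the count filter, and none was called. Log2FC ran from -0.11 to 0.60, each with an adjusted p of 1.00 (edgeR). None of all 16759 genes tested was called (0%), 241 had an unadjusted p under 0.05, none of them among the 8, and DESeq2 called 6 genes, none of the 8. Groups stood apart for 1 of the 9 genes, Slc11a2, as they did for 6.50% of all genes. Its normalized counts were 807, 777 and 756 under the UC label and 741, 716 and 653 under the control label, a log2FC of 0.14 with an interval from -0.30 to 0.59, so the narrow gap was smaller than the error of the fit.

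**Figure D5:**
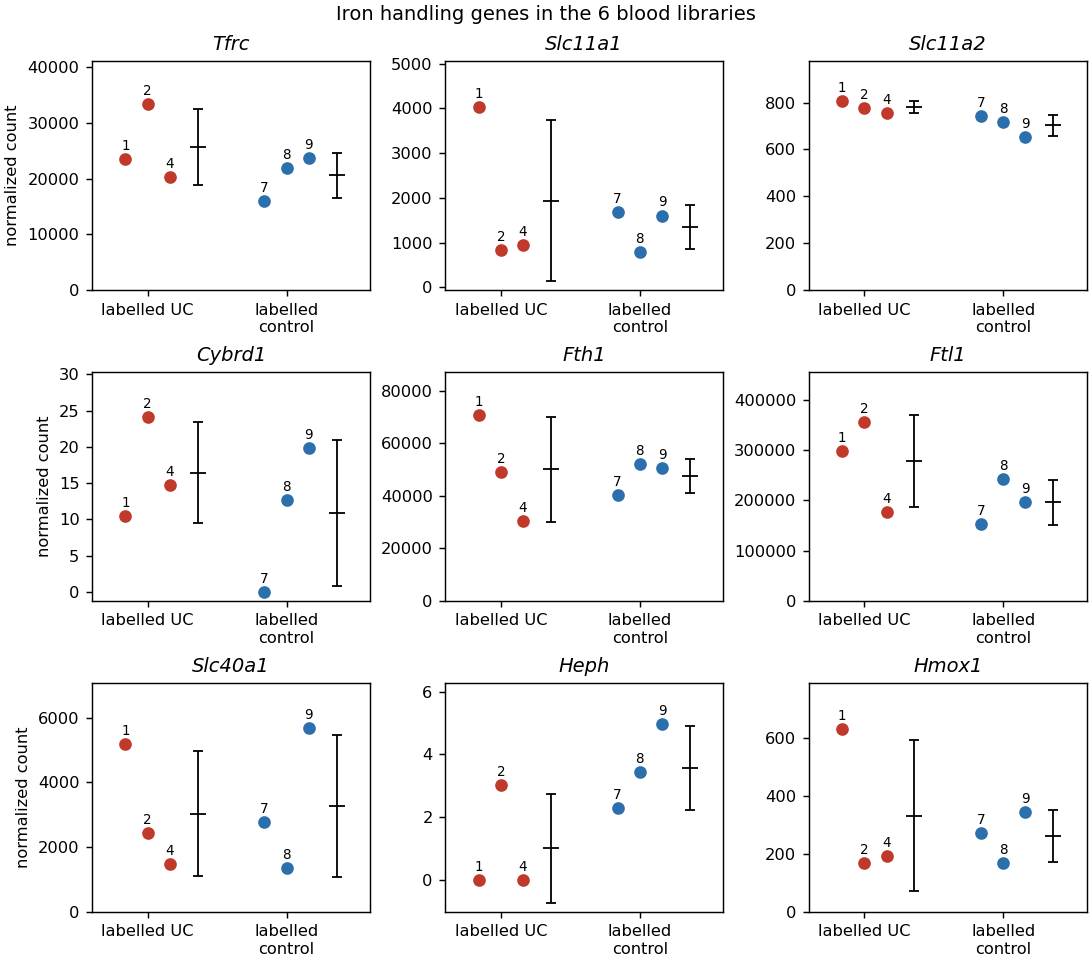
Normalized counts of the 9 genes in the 6 blood libraries, one panel a gene; red points are libraries labelled UC, blue points those labelled control, numbers are mouse numbers, and black marks are group means with SD (n = 3). Slc11a2 has no overlap but a gap of 741 to 756, Slc11a1, Slc40a1 and Hmox1 are highest in mice 1, 7 and 9, and Heph and Cybrd1 are near the limit of detection.

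Slc11a1 in the blood had 4023, 841 and 947 normalized counts in mice 1, 2 and 4 and 1673, 788 and 1604 in mice 7, 8 and 9, so the same 3 mice as in the colon were high, here with mouse 1 in front. Its log2FC was 0.51 (interval -0.90 to 1.92), and without mouse 1 it was -0.59. Hmox1 had 632, 169 and 191 and then 273, 167 and 344, with mice 1, 9 and 7 highest, and a log2FC of 0.34 (interval -0.89 to 1.56) that was -0.53 without mouse 1. Slc40a1 had 5195, 2417 and 1465 and then 2775, 1346 and 5675. Mice 9, 1 and 7 were its highest, unlike in the colon, where mouse 7 was the lowest.

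Beside these values, the neutrophil sums given above were also highest in mice 1, 7 and 9. The monocyte and macrophage sums in the blood were 77180, 69249 and 101758 in mice 1, 2 and 4 and 92942, 75975 and 77334 in mice 7, 8 and 9. Mouse 4 was highest, and the sums did not share the order. Most of each sum was Lyz2, with 62691 in mouse 1 and 92320 in mouse 4, and the genes of the list did not run together. Csf1r, Cd68, Cd14, C1qb and C1qc were highest in mice 1, 7 and 9, while Lyz2, Adgre1, C1qa, Ccr2 and Mrc1 were not. The part of neutrophils or of monocytes in the 3 genes was not tested. Most like Slc11a1 among 9970 genes were Flot1 (RMS difference 0.058) and Stat3 (0.071), and most like Slc40a1 were Clec5a and Tlr13 (both 0.14).

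Tfrc in the blood had 23481, 33372 and 20356 normalized counts in mice 1, 2 and 4 and 15990, 21960 and 23738 in mice 7, 8 and 9. Ftl1 had 299489, 356844 and 177632 in mice 1, 2 and 4 and 152454, 242000 and 196079 in mice 7, 8 and 9. Both were highest in mouse 2 and lowest in mouse 7. The red cell list (6 of 7 genes found) summed to 7784600, 7409620 and 3934280 in mice 1, 2 and 4 and to 4565050, 6917750 and 6159020 in mice 7, 8 and 9, and the libraries lowest on it, mice 4 and 7, were the lowest for Ftl1 and Tfrc as well. Log2FC was 0.32 for Tfrc (interval -0.36 to 1.01) and 0.49 for Ftl1 (interval -0.43 to 1.41), and 0.47 for Ftl1 with the counts of Gm22133 added. With those counts mouse 1 had 374635 and mouse 2 had 356847, so the first rank changed, and mice 7 (183682) and 9 (196081) were then the lowest, just under mouse 4 (198041). Fth1 had 70583, 49103 and 30459 and then 40110, 52126 and 50373, with a log2FC of 0.07 (interval -0.75 to 0.89).

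Cybrd1 in the blood had 10.5, 24.1 and 14.7 normalized counts and then 0, 12.6 and 19.9, and Heph had 0, 3.01 and 0 and then 2.30, 3.45 and 4.96. At this depth no difference was detectable for either. The nearest genes to Cybrd1, C330007P06Rik (0.69) and Arl2bp (0.70), were far from it.

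The labelled effect was also compared between tissues, by an interaction term over the 12 libraries. None of the 9 genes was called, against 1 of 23258 genes (0.00430%). Heph had an unadjusted p under 0.05, as did 793 of all genes, with an adjusted p of 1.00, and this rests on 14 counts in the blood. The log2FC of Slc11a1, -1.21 for colon and 0.51 for blood, and that of Hmox1, -1.03 and 0.34, differed in sign, and neither difference passed.

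The other genes of the pathway were counted by role from a list of 55. In the colon 47 were tested and none was called, with a median log2FC of 0.0027 beside -0.0069 for all genes, and unadjusted p was above 0.05 for each. Of the list, 40 were tested in the blood, and again none was called or had an unadjusted p under 0.05, with a median of 0.24 beside 0.036. Of the 51 that are in the colon table, 3 had no overlap between the labelled groups, while 5.66% of all genes tested in the colon had none, so the count is close to that background. They were Iscu, a scaffold for iron-sulfur clusters (1569 to 1680 labelled UC, 1719 to 2532 labelled control), the heme transporter Slc48a1 (2261 to 2402 and 1922 to 2077) and Flvcr2, at 0 to 32.2 counts. None of the 45 in the blood table did so, against 6.50% of all genes.

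Between tissues, 48 of the 55 were tested, and 19 were called higher in the colon and 17 higher in the blood with TMM, against 27 and 8 with library size only. Of all genes tested, 37.7% were called higher in the colon and 20.8% higher in the blood with TMM, and 76.9% and 7.55% with library size only. For heme synthesis, 7 of 9 genes were higher in the blood and 1 in the colon, or 3 and 2 with library size only. Alas2, the first enzyme of the pathway in red cells, had a log2FC of -12.87 and ferrochelatase (Fech), the last enzyme, -8.38, while Alas1, the form used outside red cells, was higher in the colon (1.71, adjusted p = 0.0117). Of 5 mitochondrial genes 3 were higher in the blood (2 with library size only, and 2 higher in the colon), led by mitoferrin 1 (Slc25a37, -8.20) and Iscu (-5.77). Ncoa4, the receptor that sends ferritin to lysosomes, had -6.32, and Slc48a1, which exports heme from lysosomes, -6.75.

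Toward the colon, 7 of the 9 tested genes of other uptake and reduction were called higher there under either scaling. Of all genes, 37.7% were called so with TMM and 76.9% with library size only, so under the latter the count is near the background. Slc39a14, a zinc and iron importer, had a log2FC of 3.42, the hemoglobin scavenger receptor Cd163 5.10, and Lrp1, which takes up heme bound to hemopexin, 2.26. Transferrin receptor 2 (Tfr2) was the 1 gene of that list called higher in the blood (-4.24), which was lost with library size only (-2.06, adjusted p = 0.0511). Steap4, a ferrireductase, was not called (-1.56, adjusted p = 0.2, and 0.55 with library size only). Ceruloplasmin (Cp), the plasma ferroxidase, had 691 to 8397 normalized counts in the colon and 0 to 11.6 in the blood.

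Of the iron regulators, 6 of the 10 tested were higher in the colon and 1 in the blood, or 9 and 0 with library size only. The shares of all genes were 37.7% and 20.8% with TMM, and 76.9% and 7.55% with library size only. Aco1, which encodes iron regulatory protein 1, had a log2FC of 2.19, and Fbxl5, the iron-sensing subunit of the ligase that removes the other iron regulatory protein, -1.70, which turned to 0.39 with library size only. Ireb2, which encodes that other protein, was not called with TMM (-0.31, adjusted p = 0.106) and was called higher in the colon with library size only (1.76). Hepcidin (Hamp) had at most 13.2 normalized counts in any colon library and was not tested.

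Several iron genes of the lists, named after their values were seen, were, like Slc11a1 and Hmox1, highest in mice 1, 7 and 9 in the colon. Lcn2, which sequesters the iron-loaded siderophores of bacteria, had 1248, 96.7 and 99.8 normalized counts in colon mice 1, 2 and 4 and 1208, 117 and 9155 in mice 7, 8 and 9. Lactoferrin (Ltf), an iron-binding protein of neutrophil granules, had 3509, 27.0 and 75.9 and then 2500, 27.7 and 4080. Haptoglobin (Hp), which binds free hemoglobin, had 14627, 36.6 and 24.7 and then 1607, 68.1 and 11116. Steap4 had 3292, 354 and 723 and then 3837, 508 and 5022. Cp, given above by its range, had 2422, 854 and 737 and then 3675, 691 and 8397. For these genes the 3 highest colon libraries carry 1 UC and 2 control labels, so each labelled group held both high and low libraries. In the blood, Lcn2 (9234, 169 and 170, then 774, 182 and 1886), Hp (30409, 5316 and 6182, then 11261, 4629 and 14854) and Steap4 (5144, 190 and 191, then 2324, 109 and 3555) were highest in the same mice. Ltf in the blood was not, with 2825, 111 and 71.2 and then 302, 136 and 131, so that mice 1, 7 and 8 were its highest. Cp had at most 11.6 there. Bmp2, a ligand that induces hepcidin, had in the colon 3080, 6429 and 15082 and then 3516, 15129 and 4087, with mice 4 and 8 highest, as for Slc11a2 and Slc40a1, while in the blood it had 95.8, 60.2 and 22.1 and then 66.6, 40.2 and 96.0.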

How the data were processed

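Per the study's methods, the authors trimmed reads with Flexbar, removed ribosomal reads, aligned with STAR to GRCm38 and estimated gene counts with StringTie 1.3.4c on Ensembl annotation. StringTie was run without strand as far as stated. The deposited counts are whole numbers per gene. The deposited normalized tables (signal) were made by the authors separately per tissue and equal the counts divided by 1 factor per library, so levels were compared within a tissue only. No column of another sample was present (0 unused).

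The 9 genes, the marker lists and the 55 pathway genes were chosen with earlier results of these data known. Named were all 9 genes, pathway genes by role, and for each gene that spans at least 2 in log2 CPM over a tissue (prior count 2) the 2 protein-coding genes, with a mean of at least 100 counts, of smallest RMS difference. Counts were tested with edgeR 4.0.16 (quasi-likelihood, TMM, filterByExpr, R 4.3.3) over all genes. A call needs a Benjamini-Hochberg adjusted p no higher than 0.05 with an absolute log2FC above 1, or the adjusted p alone for the interaction. Groups came from the labels, and each library is 1 mouse. Within a tissue the SD and p thus measure the spread between mice, with 3 a group. The tests over 12 libraries hold colon and blood of each mouse and treated them as independent, except in the replicate block. Alternatives were other scalings and filters, DESeq2 1.42.0, limma-voom (limma 3.58.1), each mouse left out, a fit of 12 libraries, a replicate block and, added after the data were seen, Ftl1 with Gm22133 or with its near-identical genes. Scripts were tested on simulated data. Exon lengths, coordinates and transcript sequences are from GENCODE vM21 (GRCm38), which holds 53706 of the 53801 gene IDs. One source label of each sample names the other tissue; the tissue field was used, and red cell and epithelial genes were checked against it. Colon and blood of a number come from the same mouse by the study's design; deviations from the labelled group means correlated at 0.0073 to 0.23 between such pairs over 15802 genes.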

Additional observations from a re-analysis of the deposited data

How the results depend on the processing

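The counts of genes called kept within 1.5 times their reported value under every alternative run: 0 for UC against control in each tissue and for the difference between tissues, and 5 to 8 of 9 for colon against blood (reported 6). The replicate block gave 5 of 9 there, with Slc40a1 lost, and 0 for the difference between tissues, and changed no other call. With library size only, log2FC changed direction for Fth1 (0.55) and Hmox1 (1.72) between tissues and, in blood UC against control, for Slc11a1 (-0.029), Slc11a2 (-0.15), Fth1 (-0.28) and Hmox1 (-0.19). Leaving out 1 mouse turned the direction of 9 uncalled labelled differences. In the colon these ranged, with 1 mouse left out, from -0.31 to 0.89 for Cybrd1, from -0.22 to 0.19 for Ftl1, from -0.13 to 0.24 for Heph, from -0.49 to 0.95 for Slc11a2 and from -0.72 to 0.51 for Tfrc. In the blood they ranged from -0.25 to 0.32 for Fth1, from -0.53 to 0.65 for Hmox1, from -0.59 to 0.87 for Slc11a1 and from -0.74 to 0.55 for Slc40a1. The cause was not tested. Slc40a1 was also lost between tissues with a filter of a mean of at least 10 counts (adjusted p = 0.0505). Slc11a2 and Cybrd1 were called between tissues under several alternatives, Slc11a2 with a log2FC of 1.01 and Cybrd1 of 1.74 when genes outside the normalized tables were left out. With the longest transcript as length, per-kilobase means moved by over 1 SD for 9 of 18 values, and the order of Ftl1 and Fth1 in the colon, of Heph and Slc40a1 in the colon and of Slc11a1 and Slc40a1 in the blood turned. Leaving out at once all 4 mice whose neutrophil markers go against their label would leave 1 mouse a group and no test. With 3 mice a group and a biological coefficient of variation of 0.503 (colon) and 0.417 (blood), the intervals allow labelled differences of over 2-fold for most of the 9 genes.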
